A study of Mus musculus with 12 samples.

Results

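The complement genes C4a and C4b were higher in the hippocampus of USF-1 KO mice, and they are described here together with 8 further complement genes. These 10 genes (C4a, C4b, C1qa, C1qb, C1qc, C2, C3, Serping1, Cd59a and C3ar1) were taken by name from a table of 55487 genes. C4a and C4b were chosen by their rise in these same mice, so their difference between genotypes is given as a description and without a test. The study compared bulk hippocampal RNA of 6 WT mice (4 females and 2 males) with that of 6 USF-1 KO mice (2 females and 4 males), 1 library per mouse, numbered WT1 to WT6 and KO1 to KO6 in the order of their records. All mice were littermates from heterozygous breeding on the C57Bl/6JRccHsd background and were 3 to 4 months old. The KO is constitutive, so Usf1, the gene of the transcription factor USF-1, was disrupted in all cells of the body and throughout development. Values are normalised read counts, in which the reads on a gene were scaled by the size factor of each library. Log2 fold changes are USF-1 KO minus WT on the scale of log2(normalised count + 1), with standard errors (SE) from limma.

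Complement is a cascade of plasma proteins that tags targets for removal. In its classical branch the recognition subunit C1q, made of the chains encoded by C1qa, C1qb and C1qc, activates the proteases C1r and C1s. Their activation leads to the cleavage of C4 and C2 into a convertase that in turn cleaves C3. The inhibitor encoded by Serping1 blocks C1r and C1s, CD59 stops the final membrane attack complex, and C3ar1 encodes the receptor of the C3 fragment C3a. In brain, C1q is made mainly by microglia, C4 transcripts are found in astrocytes, oligodendrocytes and neurons, and C1q, C3 and C4 are known for the marking of synapses for removal. Mice carry 2 C4 genes. C4b encodes complement C4 itself, whereas C4a, also called Slp or sex-limited protein, is a close copy whose product is expressed in an androgen-dependent way in several strains.

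The libraries held 23369928 to 32091173 reads on genes in WT and 21679622 to 30859179 in USF-1 KO mice. Usf1 had normalised counts of 117 to 163 in the 6 USF-1 KO mice and of 1425 to 1583 in 5 WT mice, while the sixth WT mouse, WT5, had 842. This level lies between those of the genotypes and puts the label of WT5 in doubt, so the C4 sum is also given without it. WT5 and WT1 also held transcripts of choroid plexus, the tissue that secretes cerebrospinal fluid, with normalised counts of Ttr of 149554 and 52017 beside 139 to 1530 in the other 10 mice. Of the 18221 genes tested, those with a mean of 10 or more normalised counts, limma called 164 (0.9%) at an adjusted p under 0.05. In USF-1 KO mice 29 of these (0.159% of those tested) rose and 135 fell. An unadjusted p under 0.05 was reached by 13.5% of the genes tested in limma, and edgeR and DESeq2 called 0.829% and 3.35% of them.

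C4b (ENSMUSG00000073418) lies on chromosome 17 from 34728380 to 34743882 and C4a (ENSMUSG00000015451) from 34809092 to 34823464, both on the reverse strand of GRCm38 and 65.2 kb apart. The deposited table lists C4b as protein-coding and C4a as a processed transcript, and GENCODE release M21 gives C4a 10 transcripts with no coding sequence among them. The full-length transcripts with 41 exons each (C4b-201 of 5379 bases and C4a-207 of 5371 bases) were identical at 5160 of 5367 aligned bases (96.1%). Because reads are divided between the copies by these differences, the stretch of 75 bases within the coding sequence of C4b that holds the most of them is shown for both genes, with the 13 differing bases in capitals. It lies in exon 21 of both transcripts, at chr17:34735430-34735504 for C4b and chr17:34816086-34816160 for C4a, and is written in the sense direction.
C4b: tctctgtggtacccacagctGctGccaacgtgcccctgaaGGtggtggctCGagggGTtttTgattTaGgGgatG
C4a: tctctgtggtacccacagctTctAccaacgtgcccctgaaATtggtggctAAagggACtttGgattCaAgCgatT
By contrast, the following stretch of exon 2, at chr17:34743538-34743612 in C4b and chr17:34823117-34823191 in C4a, is the same in both genes, so a read from within it fits either copy.
C4b and C4a: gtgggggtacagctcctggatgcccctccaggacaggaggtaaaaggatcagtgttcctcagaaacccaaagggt
Of all stretches of 75 bases in these transcripts, 23.5% of those of C4b and 23.6% of those of C4a occurred in the other gene. At 150 bases the shares were 8.26% and 8.27%. How reads that fit both genes were counted is not given in the sources used here, so the division between C4a and C4b is less certain than their sum, which is therefore given throughout.

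C4b was 50.5% higher in USF-1 KO than in WT mice. Its normalised counts were 1195 in WT1, 883 in WT2, 1125 in WT3, 951 in WT4, 1168 in WT5 and 1046 in WT6. In USF-1 KO mice they were 1719 in KO1, 1417 in KO2, 1635 in KO3, 1518 in KO4, 1510 in KO5 and 1784 in KO6. The lowest USF-1 KO mouse thus stood 222 normalised counts above the highest WT mouse. The WT mean was 1061 ± 125 (SD, n = 6), and the mean of the USF-1 KO mice was 1597 ± 139 (SD, n = 6). The log2 fold change was 0.59 with an SE of 0.08. These values rest on 837 to 2112 reads per library.

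C4a was 38.1% higher. The WT mice had normalised counts of 290 (WT1), 235 (WT2), 308 (WT3), 296 (WT4), 275 (WT5) and 263 (WT6). The USF-1 KO mice had 419 (KO1), 355 (KO2), 404 (KO3), 386 (KO4), 354 (KO5) and 385 (KO6). Again the genotypes did not overlap, with a gap of 45.5 normalised counts between the nearest mice. The means were 278 ± 26.5 in WT and 384 ± 26.03 in USF-1 KO mice (SD, n = 6 each), and the log2 fold change was 0.47 with an SE of 0.07, on 259 to 515 reads per library.

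Summed, C4a and C4b had 1339 ± 141 normalised counts in WT and 1981 ± 159 in USF-1 KO mice (SD, n = 6 each), with a range of 1117 to 1486 against 1772 to 2169. The log2 fold change of the sum was 0.57 with an SE of 0.07, and C4b made up 83.5% of the rise of 642 normalised counts. Among all genes tested, 0.423% had every USF-1 KO mouse above every WT mouse. Without WT5 the log2 fold change of the sum was 0.59, and without both mice with choroid plexus RNA it was 0.64.

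**Figure D1:**
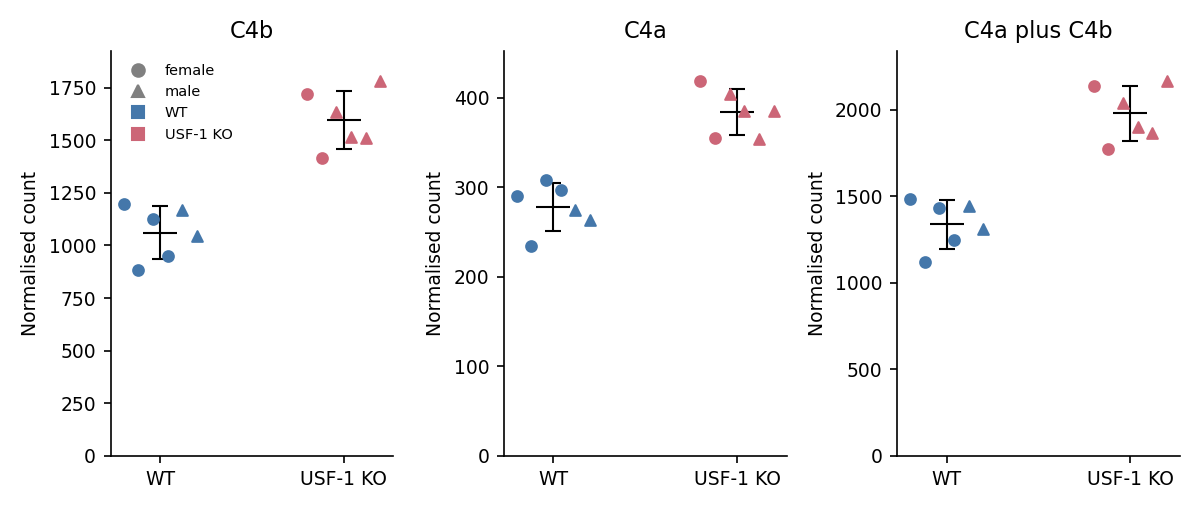
Normalised counts of C4b, C4a and their sum in each mouse (y axis, from 0) by genotype (x axis), with circles for females, triangles for males, and bars for the mean ± SD of 6 mice. In each panel every USF-1 KO mouse lies above every WT mouse, from 1417 upwards against at most 1195 for C4b and from 354 upwards against at most 308 for C4a.

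The balance between the copies moved little beside their sum. C4a supplied 20.8% ± 1.70 of the C4 counts in WT and 19.4% ± 0.921 in USF-1 KO mice (SD, n = 6 each), with overlapping ranges of 19.1% to 23.8% and 17.8% to 20.3%. The highest share was that of WT4 and the lowest that of KO6. Per kb of exon, where genes of unequal length can be compared, C4b stood at 186 ± 21.9 normalised counts and C4a at 44.8 ± 4.28 in WT mice (SD, n = 6), and at 280 ± 24.5 and 61.9 ± 4.19 in USF-1 KO mice (SD, n = 6).

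Sex was examined because C4a is the sex-limited copy and because the genotypes held unequal numbers of males. In males, the sum of C4a and C4b was 1309 to 1443 in the 2 WT and 1864 to 2169 in the 4 USF-1 KO mice. In females it was 1117 to 1486 in the 4 WT and 1772 to 2138 in the 2 USF-1 KO mice. C4a, C4b and their sum thus did not overlap between genotypes within either sex, which with so few mice was also the case, in either direction, for 12.8% of all genes tested in females and 21.1% in males. The log2 difference of the sum between genotypes was 0.57 in females and 0.53 in males. With genotype in the model, C4a differed by -0.04 (log2, male minus female, SE 0.08, adjusted p = 0.956 by limma) and C4b by 0.07 (SE 0.08, adjusted p = 0.919), neither past the threshold that 10 of all genes (0.0549%) passed. The share of C4a in C4 was 1.24 percentage points lower in males within genotype (two-sided exact permutation test over 225 assignments, p = 0.138). An interaction of sex and genotype was called by limma for no gene (0% of those tested, 628 with an unadjusted p under 0.05), and that of the C4 sum was -0.03 (log2, SE 0.16, adjusted p = 0.9999).

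The genes of C1q, which starts the classical cascade, had lower means in USF-1 KO mice, but none passed the threshold. C1qa had normalised counts of 1072 in WT1, 1194 in WT2, 1081 in WT3, 1170 in WT4, 1001 in WT5 and 1031 in WT6. The USF-1 KO mice had 915 in KO1, 892 in KO2, 983 in KO3, 863 in KO4, 875 in KO5 and 1108 in KO6. Thus 5 of 6 USF-1 KO mice stood below every WT mouse, and KO6 lay within the WT range. The log2 fold change of C1qa was -0.22 with an SE of 0.06 (adjusted p = 0.139 by limma). C1qb ranged from 962 to 1152 in WT and from 811 to 1042 in USF-1 KO mice, with a log2 fold change of -0.18 and an SE of 0.06 (adjusted p = 0.174). C1qc ranged from 824 to 1127 and from 770 to 949, with a log2 fold change of -0.21 and an SE of 0.07 (adjusted p = 0.188). Leaving out KO6 brought C1qa past the threshold (log2 fold change -0.27, adjusted p = 0.0456 by limma), and this was the only one of the 23 alternative settings to do so. In females the C1q genes did not overlap between genotypes, as 12.8% of all genes did not (log2 differences of -0.32, -0.26 and -0.29 for C1qa, C1qb and C1qc), whereas in males they overlapped (-0.09, -0.09 and -0.10). The male WT mice were only WT6 and WT5, whose label is in doubt, and WT5 had the lowest WT count of each C1q gene. The interaction of sex and genotype did not pass the threshold for these genes (adjusted p of 0.9999 for each). Of the 12 microglial marker genes, all had log2 fold changes below 0 as well, with a median of -0.20, and limma called 0 of them (7 with an unadjusted p under 0.05, beside 13.5% of all genes, with 0 called by edgeR and 2 by DESeq2, which called 3.35% of all genes). In bulk tissue fewer cells of a type and less RNA per cell cannot be told apart.

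C1qa, C1qb and C1qc lie side by side on chromosome 4 between 136880129 and 136898803. Per kb of exon they were the most abundant of the 10 genes in WT mice, at 1049 ± 73.3, 957 ± 59.7 and 494 ± 51.7 normalised counts (SD, n = 6), with overlapping ranges for C1qa and C1qb. C4b came next, followed by Cd59a at 70.2 ± 54.8, Serping1 at 68.7 ± 29.2 and C4a at 44.8 ± 4.28, which overlapped one another. C3ar1 at 11.3 ± 2.61 and C3 at 8.43 ± 6.82 overlapped too, and C2 was lowest at 1.60 ± 0.850.

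Of the components that act with C4, C2 and C3 were scarce. C2, the partner of C4 in the convertase, had 1.12 to 11.1 normalised counts in all 12 mice and 1 to 14 reads, which kept it below the mean of 10 needed for a test. C3, the substrate of that convertase, was spread widely within both genotypes. Its normalised counts were 39.0, 23.05, 103, 6.82, 63.7 and 24.2 in WT1 to WT6, and 74.9, 7.84, 102, 42.5, 22.7 and 126 in KO1 to KO6. Both genotypes therefore covered nearly the same range, and the log2 fold change of 0.47 had an SE of 0.68 (adjusted p = 0.812 by limma). C3ar1, the C3a receptor, had 27.2 to 57.9 in WT and 41.2 to 59.7 in USF-1 KO mice (log2 fold change 0.10, SE 0.18, adjusted p = 0.856).

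Neither inhibitor among the 10 genes passed the threshold. Serping1, which encodes the C1 inhibitor, had 64.7 to 238 normalised counts in WT and 120 to 229 in USF-1 KO mice (log2 fold change 0.08, SE 0.27, adjusted p = 0.936 by limma). Under edgeR and DESeq2 its direction turned, to -0.024 and -0.022. Cd59a, which encodes an inhibitor of the membrane attack complex, had 213, 83.7, 75.7, 43.2, 288 and 59.5 in WT1 to WT6, and 32.5 to 73.1 in USF-1 KO mice. The high values were those of WT1 and WT5, the mice with choroid plexus RNA. Its log2 fold change was -0.92 with an SE of 0.40 (adjusted p = 0.332 by limma), and -0.27 without these 2 mice. Of the 8 members other than C4a and C4b, 7 were tested and limma called 0 of them, with 4 at an unadjusted p under 0.05 (13.5% over all genes) and 0 called by edgeR or DESeq2.

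**Figure D2:**
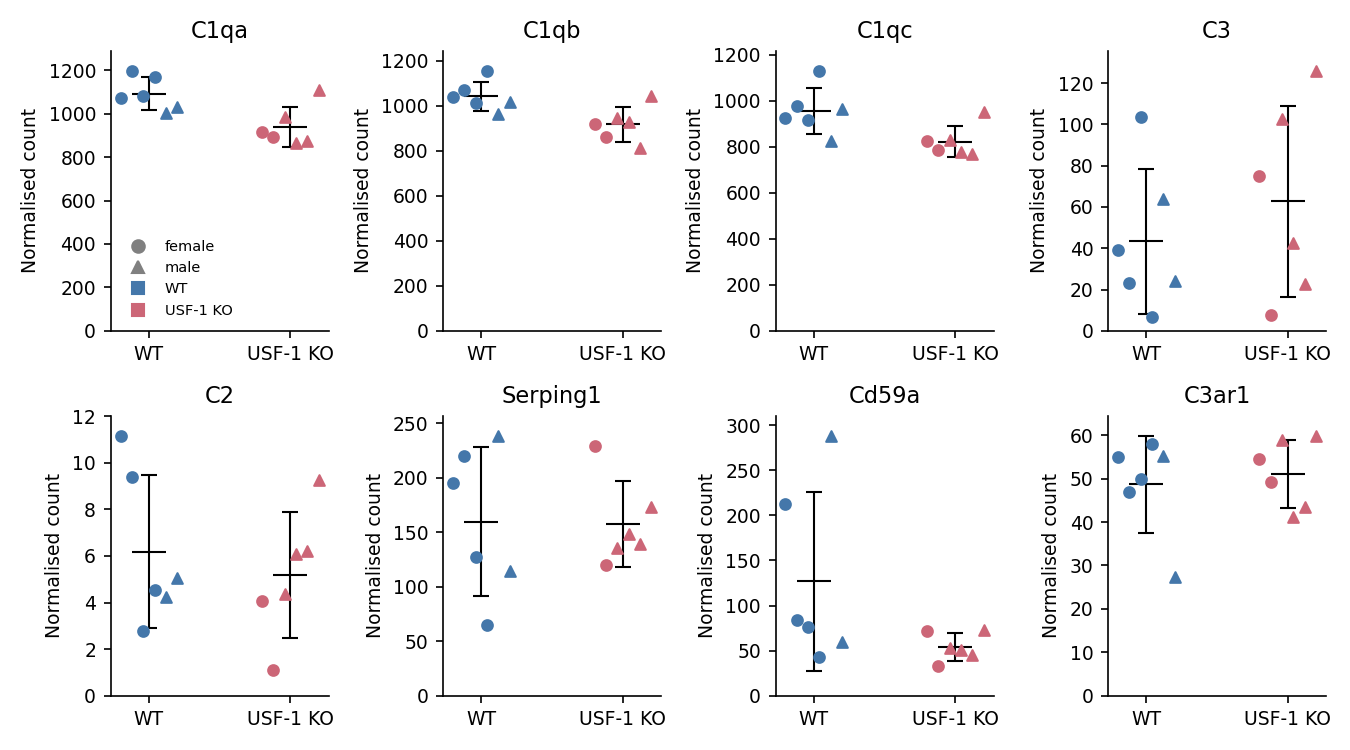
Normalised counts of the 8 other members in each mouse (y axes, from 0, of different range) by genotype, with circles for females, triangles for males, and bars for the mean ± SD of 6 mice. C1qa, C1qb and C1qc sit lower in most USF-1 KO mice, with KO6 within the WT range. C3 is scattered in both genotypes, and Cd59a is high in WT1 and WT5 only.

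Other complement genes were examined from lists of initiators, convertase components, terminal components, regulators and receptors, 58 genes in all including the members. Of these, 38 were tested. Apart from C4a and C4b, which were chosen by their rise, limma called 1 of 36 (2.78%, beside 0.9% of all genes), and this was Cd46. Of these 36 genes, 8 had an unadjusted p under 0.05, beside 13.5% of all genes. The median log2 fold change of the 38 was -0.04, against 0.00 over all genes tested. The 20 untested genes had means below 10 normalised counts, 11 of them below 1. Cfb of the alternative convertase and the lectin Mbl2 had means under 1 in both genotypes, and Mbl1 and Cfd had no read in any mouse, and a count of 0 allows up to 3 reads per library.

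Cd46 (ENSMUSG00000016493), the gene of a membrane protein that serves as cofactor in the cleavage of deposited complement fragments, rose in USF-1 KO mice. Its normalised counts were 229, 220, 220, 248, 242 and 244 in WT1 to WT6, and 290, 266, 301, 272, 285 and 314 in KO1 to KO6. No USF-1 KO mouse overlapped with a WT mouse, and the gap between the nearest was 17.9. Of all genes tested, 0.423% had every USF-1 KO mouse above every WT mouse. The log2 fold change was 0.30 with an SE of 0.06 (adjusted p = 0.0312 by limma). This call was lost with sex as a covariate (adjusted p = 0.0819), without both mice with choroid plexus RNA (0.122) and in 8 of the 12 fits that left out 1 mouse (WT1, WT2, WT3, WT6, KO1, KO3, KO5 or KO6), whose adjusted p went up to 0.0893. Cd46 lies on chromosome 1 from 195036826 to 195092249, the chromosome that also carries Usf1 (171411313 to 171419142), whereas C4a and C4b are on chromosome 17. Its neighbour Cr1l, a regulator of the same family, had a log2 fold change of -0.11 (SE 0.08, adjusted p = 0.548 by limma).

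By role, limma called 0 of the 11 tested initiators, with 3 at an unadjusted p under 0.05, which were C1qa, C1qb and C1qc. Over all genes tested, limma called 0.9%, and 13.5% had an unadjusted p under 0.05. Masp1, a protease of the lectin branch, had a log2 fold change of 0.00 (SE 0.09). C8g was the only terminal component tested (log2 fold change 0.43, SE 0.18, adjusted p = 0.294). C7, on 3 to 33 reads per library, had a mean of 11.4 in WT and 7.28 in USF-1 KO mice. The WT mean was raised by WT4 with 37.5 normalised counts, and the medians were 7.13 in WT and 6.07 in USF-1 KO mice. Among the 17 regulators tested, Cd46 alone was called, and 4 had an unadjusted p under 0.05. The most abundant, clusterin (Clu), had 21393 ± 1130 normalised counts in WT and 20156 ± 1192 in USF-1 KO mice (SD, n = 6; log2 fold change -0.09, SE 0.05, adjusted p = 0.473 by limma), and Sez6l2, a neuronal protein with complement control modules, had a log2 fold change of -0.01 (SE 0.05, adjusted p = 0.968). Of the 6 receptors tested 0 were called, and 0 had an unadjusted p under 0.05. Itgam, a subunit of complement receptor 3 on microglia, had a log2 fold change of -0.15 (SE 0.11, adjusted p = 0.576) and Cd93 one of -0.12 (SE 0.10, adjusted p = 0.662). edgeR and DESeq2 called 0 initiators, terminal components and receptors as well.

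**Figure D3:**
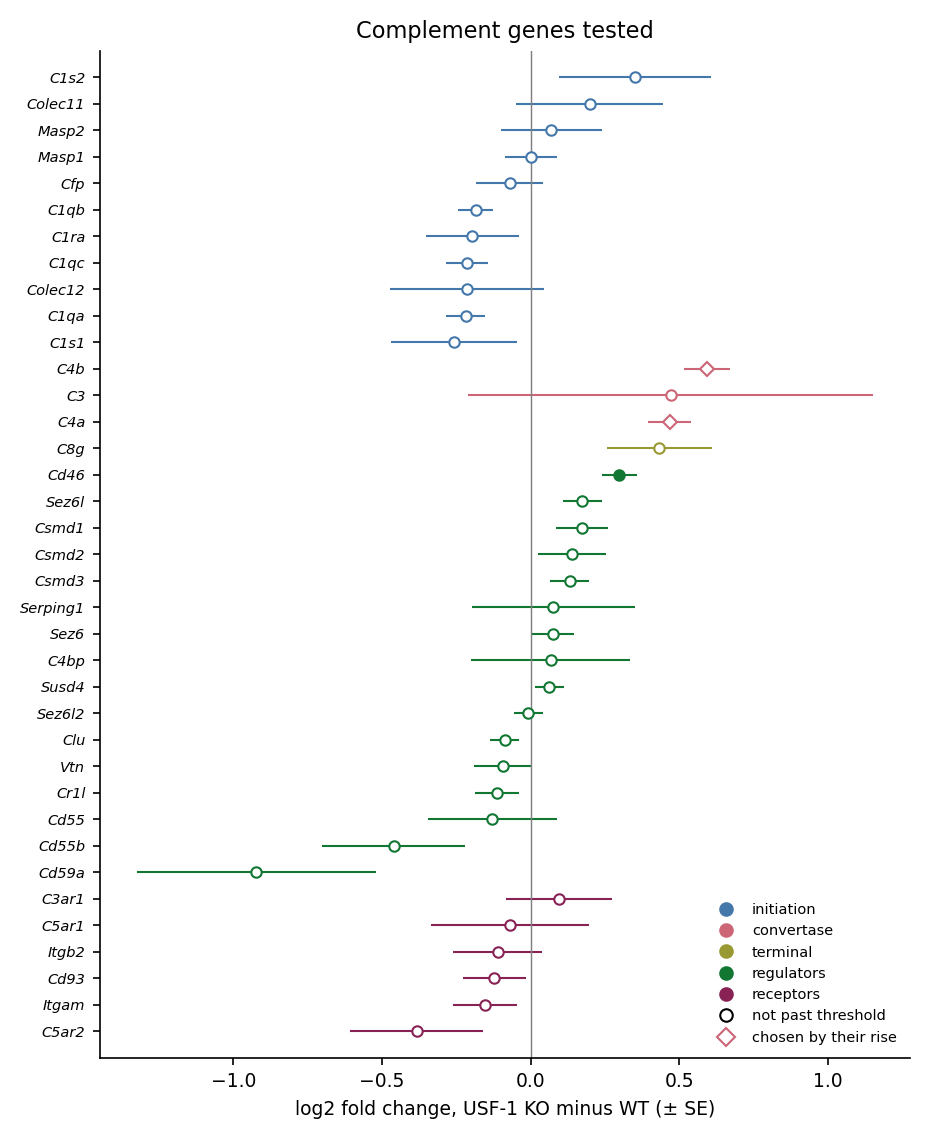
Log2 fold change of USF-1 KO against WT (x axis, points with SE bars) for 37 of the 38 complement genes tested (y axis), coloured by role, with a filled circle for a gene called by limma and diamonds for C4b and C4a, which were chosen by their rise. The diamonds lie at 0.59 and 0.47, the filled circle is Cd46 at 0.30, and the C1q genes lie between -0.22 and -0.18.

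Next, the genes around C4 were compared, since C4a and C4b sit in the gene-dense class III region of the major histocompatibility complex. Of the genes that start within 1 Mb of the start of C4b, 98 were tested. Of the 96 other than C4a and C4b, limma called 0, with 12 at an unadjusted p under 0.05 (12.5%, beside 13.5% of all genes), and edgeR and DESeq2 called 0 too. Their median log2 fold change was 0.04, in a range from -0.45 to 0.76. On the side of C4b away from C4a, Tnxb, which encodes the matrix protein tenascin-X, had a log2 fold change of 0.22 (SE 0.14, adjusted p = 0.518 by limma). Beyond C4a, Stk19 had one of 0.08 (SE 0.05, adjusted p = 0.520). Between the copies, the pseudogene Stk19-ps1 had one of 0.20 (SE 0.15, adjusted p = 0.598). The other pseudogene between them, Tnxa, is a copy of Tnxb sequence on the forward strand. It had 26.2, 26.5, 18.5, 14.8, 23.4 and 23.2 normalised counts in WT1 to WT6, and 20.3, 35.8, 41.4, 31.5, 40.2 and 36.0 in KO1 to KO6. All USF-1 KO mice but KO1 lay above the WT mice, and the log2 fold change of 0.60 (SE 0.20) did not pass the threshold (adjusted p = 0.181 by limma). C2 and Cfb, the complement genes of the same region, were too scarce to be tested.

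**Figure D4:**
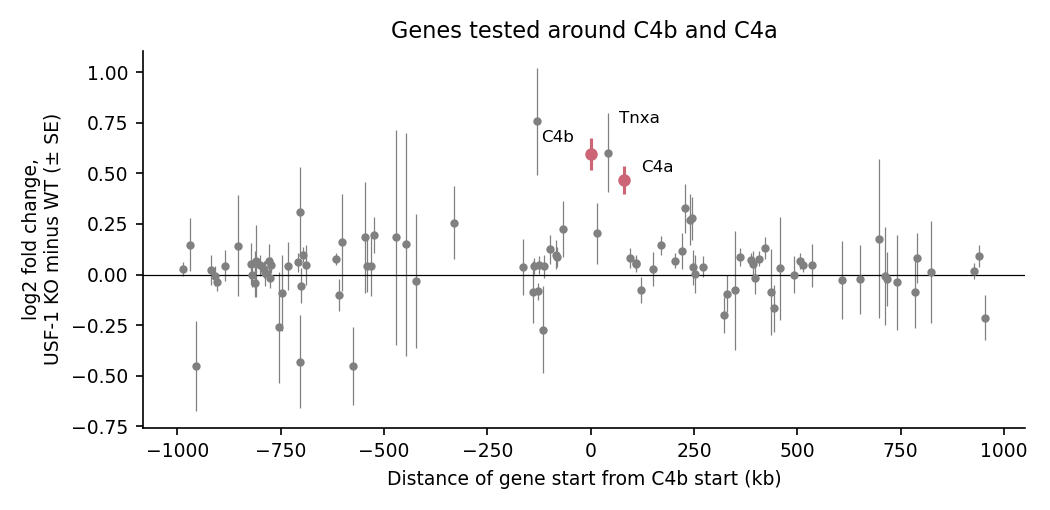
Log2 fold change of USF-1 KO against WT (y axis, points with SE bars) for the 98 tested genes within 1 Mb of C4b, by the distance of their start from that of C4b in kb (x axis). The 2 coloured points are C4b and C4a, which were chosen by their rise. Tnxa between them has a similar log2 fold change of 0.60 with a wider error, and all genes other than C4b and C4a range from -0.45 to 0.76.

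USF-1 binds the E-box CACGTG, a palindrome that reads the same on both strands. In the RefSeq promoter windows of GRCm38.p6, from 250 bases before to 50 bases after a gene start, 7.15% of 32851 held CACGTG. Windows were found for 5 of the 10 genes (C1qb, C1qc, C3, C3ar1 and Cd59a), and 0 of these held it. For C4a, C4b, C1qa, C2 and Serping1 no window was used here.

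Markers of the cell types that make C4, and further lists, were set beside it. Neuron genes had a median log2 fold change of 0.02. Of these, 0 of 10 were called by limma, edgeR or DESeq2, and 1 had an unadjusted p under 0.05 by limma. None of the astrocyte genes was called by limma, edgeR or DESeq2 (0 of 10, with 0 at an unadjusted p under 0.05 by limma), and their median log2 fold change was 0.00. The summed normalised count of these astrocyte genes was 119750 to 155761 in WT and 129462 to 143771 in USF-1 KO mice. Reactive astrocyte genes had a median of 0.02, with 0 of 11 tested genes called by any of these tools and 0 at an unadjusted p under 0.05 by limma. Oligodendrocyte genes went the other way from C4, with log2 fold changes from -0.73 to -0.59 in all 10 genes of the list. limma and edgeR called 0 of these 10 and DESeq2 called 10 (3.35% of all genes), and all 10 had an unadjusted p under 0.05 (13.5% of all genes). Their sum was 87078 to 188749 in WT and 75102 to 114833 in USF-1 KO mice. WT4, the WT mouse with the lowest sum, had 1247 normalised counts of C4, within the range of the other WT mice. Choroid plexus genes had a median log2 fold change of -1.15, with 0 of 8 called by limma or edgeR and 4 by DESeq2 (0, 8 and 8 at an unadjusted p under 0.05), and their sum was 780 to 163607 in WT and 917 to 2713 in USF-1 KO mice. The highest levels were those of WT1 and WT5. The median sum went the other way, with 1131 in WT and 1568 in USF-1 KO mice. Fibroblast and meningeal genes had a median of -0.22 and interferon-induced genes one of -0.10, with 0 called by limma or edgeR in either list (0 and 1 at an unadjusted p under 0.05 by limma) and 0 and 1 called by DESeq2. Globin genes and Alas2, which mark blood, had a median of 0.46, with 0 of 5 called by limma, edgeR or DESeq2 and 2 at an unadjusted p under 0.05 by limma. The part of these cell types in the rise of C4 was not tested.

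**Figure D5:**
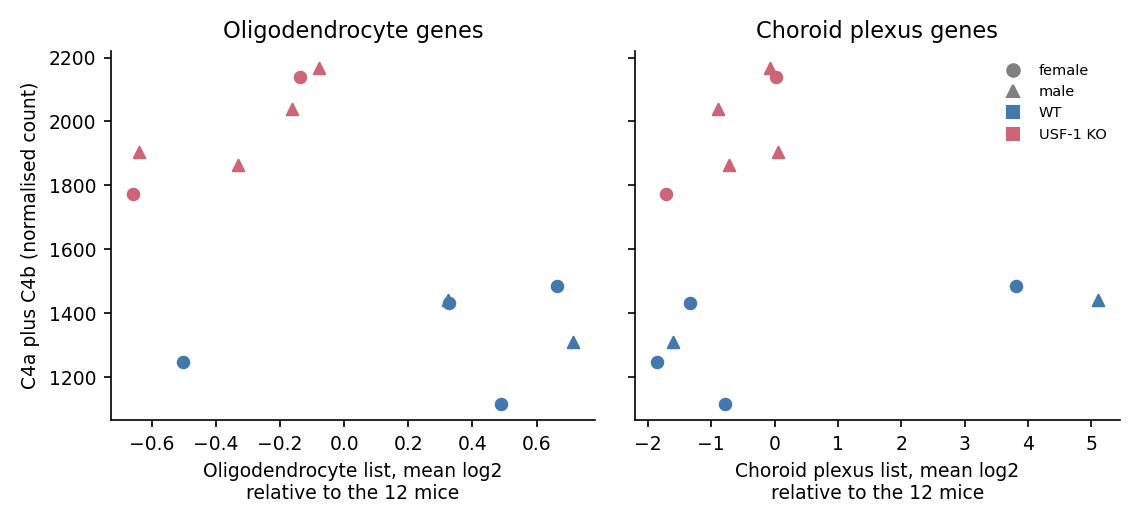
Summed normalised counts of C4a and C4b (y axis, not from 0) against the mean log2 level of the oligodendrocyte list and of the choroid plexus list (x axes, relative to the mean of the 12 mice), 1 point per mouse. The USF-1 KO mice lie above the WT mice in both panels, at 1772 to 2169 against 1117 to 1486. WT4 sits among the USF-1 KO mice on the oligodendrocyte axis, and WT1 and WT5 lie far to the right on the choroid plexus axis.

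Within a genotype, the levels of C4 and C1q were also compared with those of other genes over its 6 mice, in 12 relations. None of these passed the threshold after Benjamini-Hochberg adjustment. C4a and C4b correlated with a Pearson's r of 0.59 in WT (exact permutation p = 0.222, adjusted 0.298; Spearman's rho 0.37, p = 0.497, adjusted 0.597). This relation rested on 2 mice, since r was -0.18 without the 2 mice farthest from the median of C4a. In USF-1 KO mice r was 0.73 (exact permutation p = 0.104, adjusted 0.250; rho 0.60, p = 0.242, adjusted 0.446), and 0.65 without the 2 farthest mice. The closest relation was that of the C4 sum with the oligodendrocyte list in USF-1 KO mice, with an r of 0.88 (exact permutation p = 0.0347, adjusted 0.167; rho 0.94, p = 0.0167, adjusted 0.133), and of 0.98 without the 2 farthest mice. In WT mice the same relation had an r of 0.23 (exact permutation p = 0.675, adjusted 0.700; rho 0.14, p = 0.803, adjusted 0.803), and of -0.04 without the 2 farthest. The C4 sum and the C1q sum had an r of -0.69 in WT (exact permutation p = 0.126, adjusted 0.253; rho -0.54, p = 0.297, adjusted 0.446; r -0.87 without the 2 farthest) and of 0.79 in USF-1 KO mice (exact permutation p = 0.0444, adjusted 0.167; rho 0.89, p = 0.0333, adjusted 0.133; r 0.77 without the 2 farthest). With the fibroblast and meninges list the C4 sum had an r of 0.82 in USF-1 KO mice (exact permutation p = 0.0347, adjusted 0.167). Here rho was 0.89 (exact permutation p = 0.0333, adjusted 0.133), and r was 0.86 without the 2 farthest mice. In WT mice r was 0.21 (exact permutation p = 0.700, adjusted 0.700), and -0.03 without the 2 farthest, with a rho of 0.54 (exact permutation p = 0.297, adjusted 0.446). With the astrocyte list r was 0.65 in USF-1 KO mice (exact permutation p = 0.160, adjusted 0.274). Here rho was 0.83 (exact permutation p = 0.0583, adjusted 0.175), and r was 0.92 without the 2 farthest mice. In WT mice r was -0.59 (exact permutation p = 0.224, adjusted 0.298), and -0.86 without the 2 farthest, with a rho of -0.60 (exact permutation p = 0.242, adjusted 0.446). The C1q sum and the microglia list had an r of 0.87 in WT mice (exact permutation p = 0.0556, adjusted 0.167). Their rho was 0.49 (exact permutation p = 0.356, adjusted 0.474), and r was -0.51 without the 2 farthest mice. In USF-1 KO mice this r was 0.42 (exact permutation p = 0.447, adjusted 0.537). There rho was 0.20 (exact permutation p = 0.714, adjusted 0.779), and r was 0.50 without the 2 farthest. The difference between genotypes in these relations was not tested.

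Likeness of pattern was then measured as the correlation of log2 values over the 12 mice after subtraction of the genotype means, among 12676 other genes with a mean over 100, as a description of genes that share these libraries. The genes most like C4b were Chdh, Eml3, Tmem106c, Mob3c and Ccdc187, with an r of 0.86 to 0.88. Those most like C4a were Txnl4b, Mdga2, Mre11a, Zfp868 and Snhg4, with an r of 0.77 to 0.90. C4a ranked 355th for likeness to C4b and C4b ranked 49th for likeness to C4a (r = 0.63). C1qa had C1qb and C1qc among its 5 closest genes (r of 0.84 and 0.83), beside Hexa, Zfp862-ps and Glns-ps1, whereas its r with C4b was -0.03 and with C4a 0.02.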

How the data were processed

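Bulk RNA of the hippocampus was sequenced in 6 WT and 6 USF-1 KO mice, and genotype and sex were taken from the sample labels, whose sexes differ from those of the published legend. The authors deposited a signal, that is, read counts normalised by a size factor per library, after alignment to mm10 with STAR 2.5.0a. The submitters' processing notes also name edgeR 3.22.2, and the methods name DESeq2. Counter, annotation and strand are not given in the sources used here. All values were whole multiples (within 0.01 of a step) of 1 read, and reads were recovered from them. Coordinates were identical to GENCODE M21 (GRCm38) for 98.8% of genes.

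Genotypes were compared with limma 3.58.1 (R 4.3.3, trend, two-sided, Benjamini-Hochberg, threshold 0.05) on log2(normalised count + 1), with a minimum mean of 10 per gene. The sum of C4a and C4b replaced both rows in the same fit. Sex was tested with genotype in the model, and with an interaction term. The alternatives were pseudocounts of 0.5 and 5, no minimum mean or one of 50, equal totals, quantile normalisation, a term for sex, no trend, the quasi-likelihood test of edgeR 4.0.16 and DESeq2 1.42.0 on recovered reads, and leaving out each mouse. The steps were tested on simulated data. Transcripts were aligned end to end from GENCODE M21.

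The members and lists were chosen with earlier results of these data known. Named were the members, complement genes called, the 2 most abundant of each complement list, genes beside C4a and C4b or called within 1 Mb, the 5 genes most like C4b, C4a and C1qa, and Usf1. Cfb, Mbl1, Mbl2, Cfd, Masp1, Cr1l, Csmd1, Ddr1, Alas2 and Ttr were named after their values were seen. Values of 1 complement gene are left out.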

Additional observations from a re-analysis of the deposited data

Results flagged for a closer look

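Among 26 groups of 6 mice (13 measures in each genotype), 2 held a mouse that stood apart by Dixon's criterion, which chance gives in about 1 of 20 groups. C1qc in KO6 was 949 normalised counts, beside 770 to 829 in the other 5 USF-1 KO mice. C3ar1 in WT6 was 27.2 normalised counts, beside 46.9 to 57.9 in the other 5 WT mice.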

How the results depend on the processing

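C4b and C4a were chosen by their rise, with every USF-1 KO mouse above every WT mouse. Leaving out mice could therefore not turn their direction, and the alternatives show only the size of the difference. The log2 fold changes of C4b (0.54 to 0.67), C4a (0.42 to 0.51) and their sum (0.52 to 0.64) are given over all 23 alternatives. With 1 mouse left out they were 0.54 to 0.63, 0.42 to 0.50 and 0.52 to 0.60. The difference in C4a share between genotypes was -1.42 percentage points, and -1.77 to -0.83 with 1 mouse left out. Apart from C4a and C4b, 0 to 2 complement genes were called, with Csmd1 (adjusted p = 0.0122 by limma) added without WT4, and within 1 Mb of C4b Ddr1 alone was called, without WT4. C4a between sexes ran from -0.089 to 0.00014 with 1 mouse left out, turning without KO1. Serping1 (0.08) turned to -0.024 with edgeR and -0.022 with DESeq2, and ran from -0.16 (without WT4) to 0.22 with 1 mouse left out. C3ar1 ran from -0.059 (without WT6) to 0.15. Over all genes, 164 calls became 98 with sex as a covariate, 109 without the trend, 611 with DESeq2, 59 without both mice with choroid plexus RNA (an alternative chosen after seeing the data) and 64 to 515 with 1 mouse left out. The fewest came without WT1 and the most without WT4. The cause was not tested. No paired analysis was possible because replicate numbers were given in accession order and do not tie mice of both genotypes together.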
